A study of Mus musculus with 6 samples.

Results

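The genes described here are the secreted Wnt ligands, the R-spondins, the Frizzled and LRP receptors, the secreted Wnt inhibitors and the core intracellular parts of the pathway in mouse primary adipocytes. They were picked by gene symbol and number 54 of the 22609 genes in the count lists. The cells were grown from the stromal vascular fraction of inguinal white fat of male C57BL6 mice, aged 3 weeks by the sample labels and 4 weeks by the study's methods, and were differentiated in culture. RNA was sequenced from 3 samples carrying a control and 3 samples overexpressing miR182, called control and miR182 adipocytes below. All 6 samples share strain, sex, age and culture, and neither the labels nor the study's methods say whether samples came from separate mice or cell preparations, so the p-values measure the spread between these samples. The labels describe delivery by electroporation and a control vector, while the methods describe a miR-182-5p mimic and a mimic control delivered with a lipid reagent. The overexpression itself cannot be read from these poly(A)-selected libraries, which do not capture mature miRNAs, and no read of Mir182 was counted in any of the 6.

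Wnt ligands are secreted lipid-modified proteins that bind Frizzled receptors together with the coreceptors LRP5 or LRP6. In the canonical branch this stops the destruction complex of AXIN, APC and kinases from marking β-catenin for degradation, and β-catenin then activates genes together with TCF and LEF factors. In fat, Wnt signaling is known for holding precursor cells in an undifferentiated state, and secreted Frizzled-related proteins and Dickkopf proteins restrain it outside the cell.

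Whether the 3′-UTRs of these mRNAs hold a match to the miRNA was examined first. Coding sequences and 5′-UTRs, where the study places its site in Nr1d1, were not searched. The mature mouse miR-182-5p in RefSeq (GRCm38.p6, chr6:30165962-30165986, minus strand) is shown with its seed, bases 2 to 8, in capitals. The mature sequence printed in the study's methods is a different one, and which of them the cells received was not tested.
miR-182-5p: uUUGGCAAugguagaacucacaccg

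The seed pairs with TTGCCAA in a target. Of the 34 members with enough reads to be tested, 6 (17.6%) held this match in the longest annotated 3′-UTR, against 12.5% of 12529 tested genes with a known 3′-UTR. In 3 members, Wnt4, Wnt16 and Fzd3, a match was followed by an A, which gives the 8-base match TTGCCAAA held by 5.24% of the tested genes. The sites of these 3 (for Fzd3 the one followed by an A) and of the other tested members with a match are shown with 8 flanking bases on each side, the match in capitals, as GENCODE M21 transcripts on GRCm38 give them.
Wnt4 (chr4:137296908-137296930, plus strand): gttatttaTTGCCAAaaaaaaaa
Wnt16 (chr6:22291855-22291877, plus strand): atagtgaaTTGCCAAacttcaac
Fzd3 (chr14:65201797-65201819, minus strand): atgtgatcTTGCCAAagccatta
Sfrp1 (chr8:23446924-23446946, plus strand): tctgatcaTTGCCAAgccaggct
Sfrp1 (chr8:23448927-23448949, plus strand): gaccagcgTTGCCAAtgaaaagg
Lrp6 (chr6:134450075-134450097, minus strand): agactgttTTGCCAAgagccatg
Dkk2 (chr3:132178870-132178892, plus strand): gaatggcaTTGCCAAtgtcattc

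Fzd3 held 3 matches in a 3′-UTR of 10270 bases and Sfrp1 held 2 in 3144 bases. The site of Wnt4 starts at base 137 of its 3′-UTR. The other 28 members tested held no match in this window, among them Wnt5b, Rspo3, Fzd5, Fzd6, Sfrp4 and Axin2. A match is a description of the letters and not evidence of binding.

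Wnt genes changed in both directions in miR182 adipocytes. The ligands Wnt4 and Wnt5b fell to 0.41 and 0.495 of the control level, the R-spondin Rspo3 and the secreted inhibitor Sfrp4 also fell, and the receptors Fzd5 and Fzd6 and the destruction complex gene Axin2 rose by 1.5 to 1.6 times. Calls required a change of at least 1.5-fold and an adjusted p under 0.05 (edgeR quasi-likelihood F test, p adjusted by Benjamini-Hochberg across 13117 genes). SE is the standard error of a log2 fold change. By this rule 7 of the 34 members tested were called (20.6%), where 7.45% of all genes tested were. Of the 7, 3 were higher (1.97% of all genes were called higher) and 4 were lower (5.48%). With the adjusted p alone, 19 of the 34 members passed (55.9%), 9 higher and 10 lower, against a background of 46.7%, with 23.2% higher and 23.5% lower. The groups of 3 did not overlap for 22 members (64.7%), against 54.8% of all genes. The median log2 fold change of the 34 members was -0.02, against -0.004 for all genes tested. The members took 0.279% to 0.286% of the reads on genes in all 6 samples, and 25869810 to 28796712 reads per sample lay on genes.

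**Figure D1:**
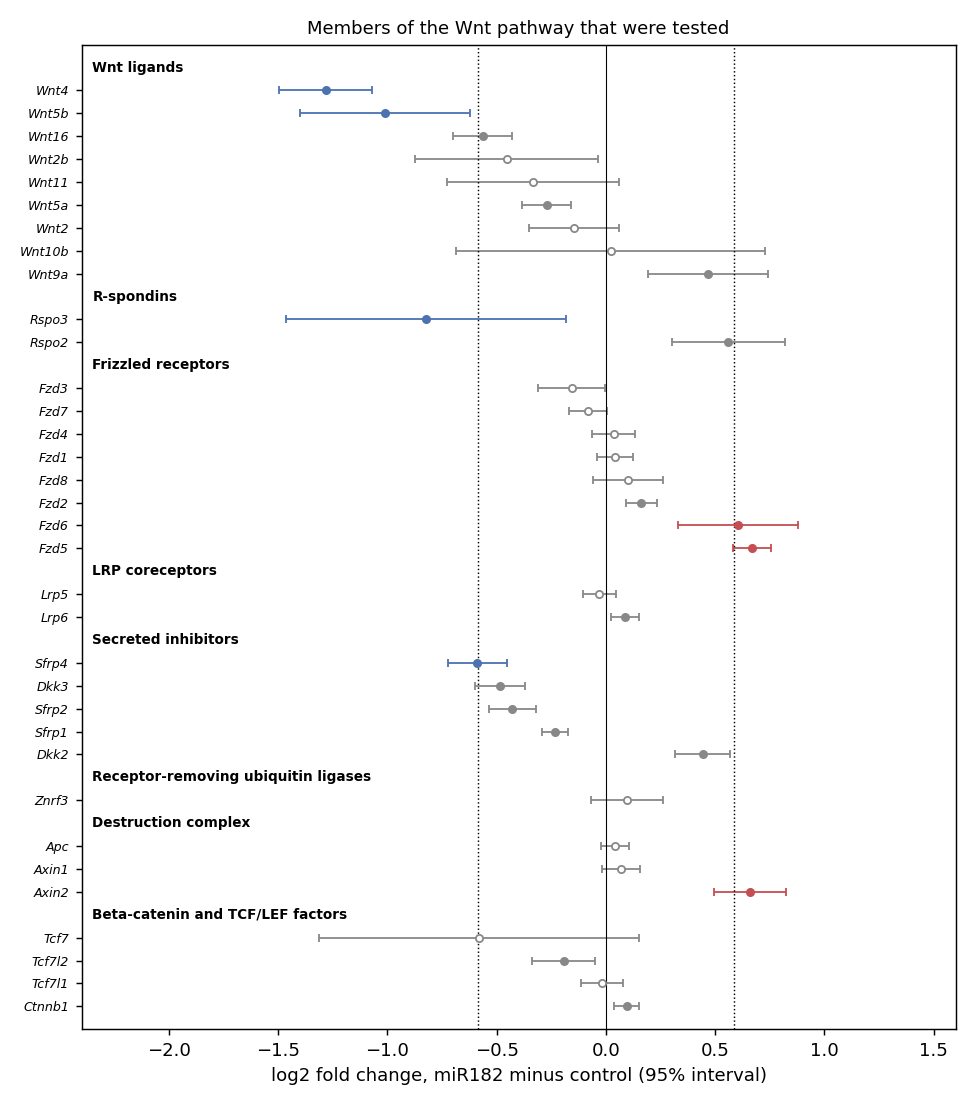
Each point is the log2 fold change of 1 of the 34 members tested (miR182 minus control, n = 3 each, edgeR) with its 95% interval, grouped by role; red and blue points were called higher and lower, filled points passed the adjusted p, and dotted lines mark 1.5-fold. The 3 red genes are Fzd5, Fzd6 and Axin2, the 4 blue genes are Wnt4, Wnt5b, Rspo3 and Sfrp4, and 4 of the 5 secreted inhibitors lie left of 0.

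Of the 19 Wnt ligands, 9 were tested, and 4 fell and 1 rose past the adjusted p (55.6%, against 46.7% of all genes). Wnt4, a ligand known for its role in kidney and gonad development, lies on chromosome 4 of GRCm38 (137277489 to 137299726). Its level was 14.1, 15.6 and 12.7 CPM (a gene's reads relative to the TMM-scaled size of the library) in the control samples and 6.06, 5.09 and 6.27 CPM in the miR182 samples. The highest miR182 sample lay under the lowest control sample by more than the spread within either group. The log2 fold change was -1.28 (SE 0.0995, adjusted p = 1.55e-07, edgeR), the largest in size among the 34 members.

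Wnt5b, a ligand of the noncanonical branch, lies on chromosome 6 (119432531 to 119544347) and was measured at 2.12, 2.26 and 1.99 CPM in control adipocytes. In miR182 adipocytes it was measured at 0.925, 1.02 and 1.20 CPM. The groups did not overlap, with 27 to 34 reads per miR182 sample against 52 to 59 per control sample. The log2 fold change was -1.01 (SE 0.181, adjusted p = 0.000378, edgeR).

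Wnt16, known for its role in bone, was the ligand with the highest level per exon length in control adipocytes. It was measured at 20.7, 22.3 and 19.96 CPM in control and 14.0, 14.7 and 14.0 CPM in miR182 samples, again with no overlap. Its log2 fold change of -0.56 (SE 0.0632, adjusted p = 5.79e-06, edgeR) passed the adjusted p and lay just short of the 1.5-fold line (0.585 on the log2 scale). It crossed that line without control replicate 3 (-0.599).

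Wnt5a, the closest relative of Wnt5b and the standard noncanonical ligand, was measured at 26.8, 27.1 and 27.4 CPM in control and 21.9, 22.0 and 23.4 CPM in miR182 samples. It fell by 0.27 on the log2 scale (adjusted p = 0.00073, edgeR). Wnt9a was the only ligand that rose past the adjusted p, from 2.88 ± 0.276 to 3.995 ± 0.223 CPM (SD, n = 3 each; log2 fold change 0.47, adjusted p = 0.00777, edgeR).

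The remaining 4 ligands tested did not pass. Wnt2 had a log2 fold change of -0.15, Wnt2b of -0.45, Wnt11 of -0.33 and Wnt10b of 0.02. Wnt10b, the ligand best known for blocking fat cell formation, had only 10 to 25 reads per sample. Its 95% interval ran from -0.69 to 0.73, which does not leave out a change of 1.5-fold in either direction. The other 10 ligands had at most 5 reads in any sample. Wnt1, Wnt3a, Wnt7a and Wnt9b had 0 reads in all 6 samples, which allows up to 3 reads per sample, or 0.103 to 0.118 CPM, by counting error alone.

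Levels were compared between genes as CPM per kilobase of exon, with exon lengths from GENCODE M21. In control adipocytes Wnt16 stood first among the ligands at 4.82 ± 0.276 (SD, n = 3). Wnt5a (3.46 ± 0.0409), Wnt4 (3.38 ± 0.346) and Wnt2 (3.24 ± 0.093) followed, lower than Wnt16 by more than these SDs, and among these 3 neighbours differed by less than the larger of their SDs. In miR182 adipocytes Wnt16 (3.26 ± 0.0934), Wnt2 (2.93 ± 0.308) and Wnt5a (2.87 ± 0.108) came first, and Wnt4 stood at 1.38 ± 0.151, near Wnt9a at 1.20 ± 0.0668. Summed over the 19 ligands, this level was 16.9 to 18.2 in control and 12.4 to 13.2 in miR182 samples.

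**Figure D2:**
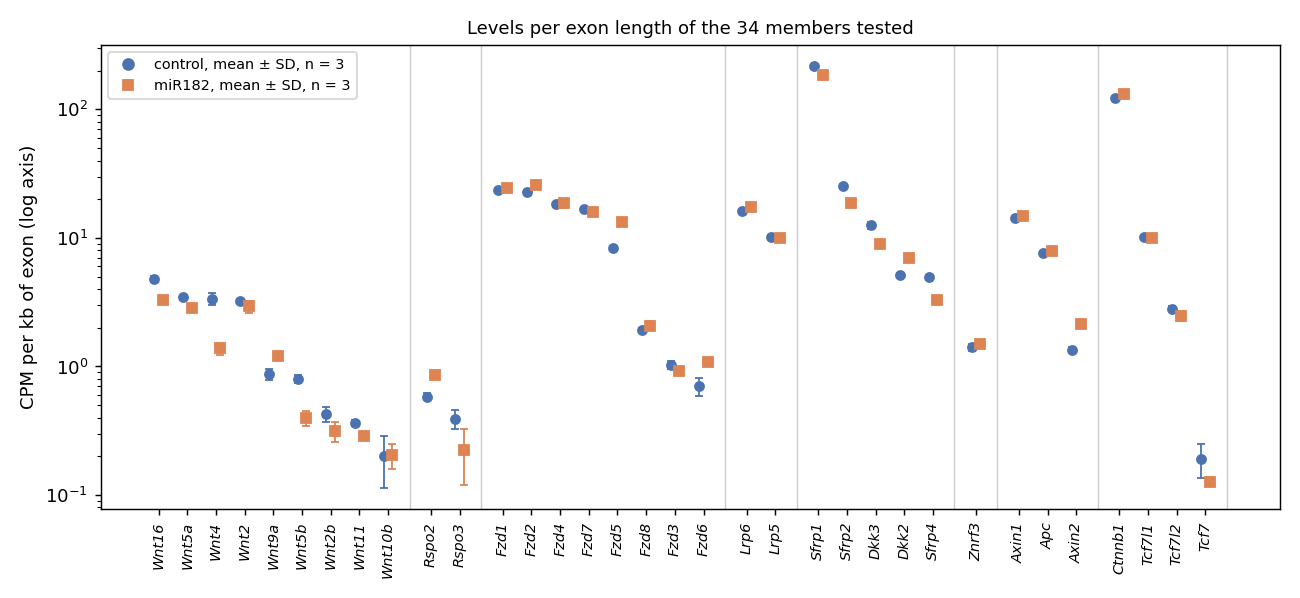
Level per exon length (CPM per kb, log axis) of the 34 members tested, mean ± SD of 3 control (circles) and 3 miR182 samples (squares), in blocks by role and ordered by the control level. Sfrp1 and Ctnnb1 stand highest, all ligands lie under 5, and Wnt4, Wnt5b, Fzd5 and Axin2 show separated symbols.

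R-spondins bind LGR receptors and keep Frizzled receptors at the cell surface by removing the ubiquitin ligases ZNRF3 and RNF43. The pair measured here went in opposite directions. Rspo2 had 73 to 83 reads in control and 108 to 136 in miR182 samples and rose past the adjusted p, by 0.56 on the log2 scale (SE 0.121, adjusted p = 0.00165, edgeR), short of the 1.5-fold line. It crossed that line without control replicate 2 (0.611) or miR182 replicate 2 (0.61).

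Rspo3 had 32, 26 and 36 reads in control and 11, 27 and 19 in miR182 samples. The groups overlapped, since miR182 replicate 2 lay above control replicate 2. Its call (log2 fold change -0.82, SE 0.298, adjusted p = 0.0355, edgeR) was lost most often of the 7. It was lost in DESeq2 (adjusted p = 0.0719) and in 4 of 6 leave-one-out fits, with adjusted p values of 0.0937 without control replicate 1, 0.119 without control replicate 3, 0.144 without miR182 replicate 1 (log2 fold change -0.517) and 0.0746 without miR182 replicate 3. Of its 3090 exon bases, 404 are shared with an antisense gene. Rspo1 and Rspo4 had at most 3 reads in any sample. Rnf43 had 1 read in all, and Znrf3 had a log2 fold change of 0.10 (95% interval -0.07 to 0.26).

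Of the 10 Frizzled receptors, 8 were tested. Past the adjusted p, 3 rose (37.5%, where 23.2% of all genes rose) and none fell. With both directions counted, 37.5% passed, under the 46.7% of all genes. Fzd5 lies on chromosome 1 (64730558 to 64737751) and encodes a receptor for canonical Wnt ligands. It was measured at 57.1, 57.2 and 58.0 CPM in control and 87.4, 96.8 and 90.1 CPM in miR182 samples. All 3 miR182 samples lay well above the control samples, which differed from each other by under 1 CPM. The log2 fold change was 0.67 (SE 0.0407, adjusted p = 1.25e-08, edgeR), the smallest adjusted p of all members. A transcript annotated on the opposite strand covers 1233 of its 6915 exon bases, and whether counting used the strand is not given in the sources used here.

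Fzd6, known for planar cell polarity in hair, lies on chromosome 15 (39006034 to 39038188). It had 3.22, 4.02 and 2.95 CPM in control and 4.97, 5.46 and 5.10 CPM in miR182 samples, with no overlap. The log2 fold change was 0.61 (SE 0.128, adjusted p = 0.00145, edgeR). Leaving out each sample in turn gave 0.513 to 0.745, under the 1.5-fold line without control replicate 1 (0.569), control replicate 3 (0.513) or miR182 replicate 2 (0.57).

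Fzd2 rose from 84.1 ± 2.07 to 94.2 ± 1.74 CPM (SD, n = 3 each; log2 fold change 0.16, adjusted p = 0.00104, edgeR). Fzd1, Fzd4, Fzd7 and Fzd8, which did not pass, had log2 fold changes between -0.08 and 0.10. Fzd3, with its 3 seed matches, had -0.16 (adjusted p = 0.09, edgeR). With 1 sample left out, the threshold was passed by Fzd3 without control replicate 1 (-0.205, adjusted p = 0.0463), by Fzd4 without miR182 replicate 1 (0.102, adjusted p = 0.0155) and by Fzd7 without miR182 replicate 2 (-0.119, adjusted p = 0.0378). Fzd9 had 4 to 14 reads and Fzd10 at most 5. Per exon length, Fzd1 (23.6 ± 0.401) and Fzd2 (23.0 ± 0.566) led in control samples, followed by Fzd4 and Fzd7, and Fzd5 moved from 8.30 ± 0.0726 to 13.2 ± 0.698, which left it behind those 4 in both groups.

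The coreceptor genes stayed within narrow limits. Lrp6 rose from 222 ± 1.48 to 236 ± 8.17 CPM (SD, n = 3 each; log2 fold change 0.09, adjusted p = 0.0272, edgeR). It missed the threshold with upper-quartile size factors (adjusted p = 0.0515, edgeR) and whenever a sample other than miR182 replicate 1 was left out (adjusted p of 0.0563 to 0.101). Its 3′-UTR holds a seed match. Lrp5 had a log2 fold change of -0.03, with a 95% interval from -0.11 to 0.05.

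Secreted inhibitors bind Wnt ligands (the Frizzled-related proteins and WIF1) or LRP coreceptors (the Dickkopf proteins DKK1, DKK2 and DKK4). All 5 of the 9 that could be tested passed the adjusted p (46.7% of all genes did), 4 lower and 1 higher, and in each the groups did not overlap (54.8% of all genes). Sfrp4, on chromosome 13 (19623104 to 19632994), had 20.3, 21.4 and 20.4 CPM in control and 13.2, 14.6 and 13.5 CPM in miR182 samples. The log2 fold change of -0.59 (SE 0.0629, adjusted p = 3.69e-06, edgeR) lay on the 1.5-fold line. Leaving out each sample in turn gave -0.629 to -0.557, short of that line without control replicate 2 (-0.564), miR182 replicate 1 (-0.557) or miR182 replicate 3 (-0.57), while its adjusted p was at most 6.54e-05.

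Sfrp1 had the highest level per exon length of the 54 genes. It made up 81.8% of the summed level per exon length of the 9 inhibitors in control and 82.8% in miR182 adipocytes. It was measured at 941, 944 and 957 CPM in control and 808, 816 and 793 CPM in miR182 samples, and fell by 0.23 on the log2 scale (SE 0.0276, adjusted p = 9.5e-06, edgeR).

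Sfrp2 fell from 54.6 ± 1.90 to 40.6 ± 2.38 CPM (SD, n = 3 each; log2 fold change -0.43, adjusted p = 8.02e-06, edgeR). Of its 2153 exon bases, 347 are shared with an antisense gene. Dkk3, a divergent Dickkopf protein, fell from 42.2 ± 2.54 to 30.1 ± 0.778 CPM (SD, n = 3 each; log2 fold change -0.48, adjusted p = 4.7e-06, edgeR). Dkk2 was the exception. It was measured at 18.8, 19.0 and 19.8 CPM in control and 27.1, 24.5 and 26.6 CPM in miR182 samples, and rose by 0.44 (SE 0.0581, adjusted p = 2.53e-05, edgeR) with a 7-base seed match in its 3′-UTR.

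Dkk1 had 0 reads in every sample, and Dkk4, Sfrp5 and Wif1 had at most 3. The summed level of the 9 inhibitors per exon length went from 263 to 268 in control samples to 219 to 226 in miR182 samples, a ratio of 0.84. The sum of the 19 ligands had a ratio of 0.731, and that of the 10 Frizzled receptors a ratio of 1.09.

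**Figure D3:**
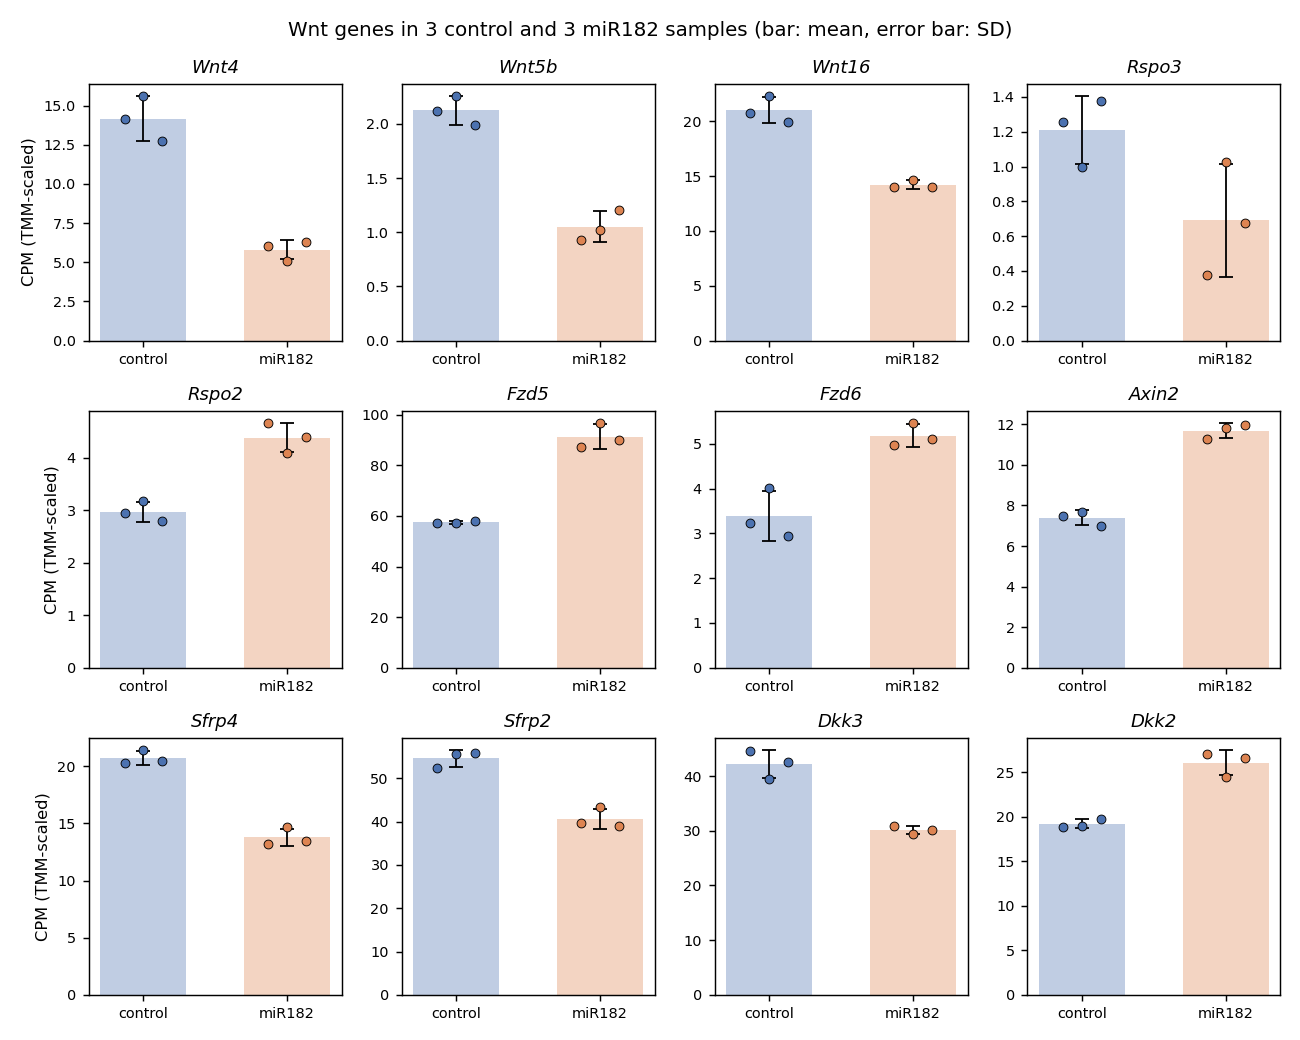
CPM of 12 Wnt genes in each of 3 control and 3 miR182 samples (points), with the mean (bar, axis from 0) and SD (error bar). All 12 are members that passed the adjusted p. The groups are apart in 11 panels, and Rspo3 overlaps. Wnt4, Wnt5b, Wnt16, Sfrp4, Sfrp2 and Dkk3 are lower and Rspo2, Fzd5, Fzd6, Axin2 and Dkk2 higher in miR182 samples. The groups did not overlap for 64.7% of the 34 members tested and 54.8% of all genes.

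Of the 7 tested members in the destruction complex and among β-catenin and its partner factors, 1 was called (7.45% of all genes were). Axin2 encodes a scaffold of the destruction complex and is itself a widely used target gene of β-catenin, so it reads out the canonical branch as well as restraining it. It lies on chromosome 11 (108920349 to 108950783). Axin2 had 7.503, 7.70 and 7.01 CPM in control and 11.3, 11.8 and 11.97 CPM in miR182 samples, and the lowest miR182 sample stood clear of the highest control sample. The log2 fold change was 0.66 (SE 0.0771, adjusted p = 8.92e-06, edgeR), and it kept its call whichever sample was left out (0.621 to 0.688). Of its 5506 exon bases, 209 are shared with an antisense gene.

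Its partners in the complex did not pass, with log2 fold changes of 0.07 for Axin1 and 0.04 for Apc. Their 95% intervals, from -0.02 to 0.15 and from -0.02 to 0.11, leave out a 1.5-fold change. Ctnnb1, which encodes β-catenin, rose from 641 ± 3.75 to 684 ± 4.46 CPM (SD, n = 3 each; log2 fold change 0.10, adjusted p = 0.00869, edgeR). Of its 5192 exon bases, 759 are shared with the protein-coding gene Ulk4 on the opposite strand. Protein stability, through which the pathway acts on β-catenin, is not measured here.

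Among the TCF and LEF factors, Tcf7l2 fell from 24.8 ± 1.17 to 21.7 ± 1.94 CPM (SD, n = 3 each; log2 fold change -0.19, adjusted p = 0.0296, edgeR). It missed the threshold without control replicate 3 (adjusted p = 0.126, edgeR), miR182 replicate 1 (0.0841) or miR182 replicate 2 (0.132). Tcf7l1 had a log2 fold change of -0.02 (95% interval -0.11 to 0.08) and was the highest of them per exon length, at 10.1 ± 0.0637 in control samples. Tcf7 had 8 to 17 reads per sample and a log2 fold change of -0.58 that did not pass (95% interval -1.31 to 0.15). Lef1 had at most 5 reads.

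The members with a seed match differed in direction. Wnt4, Wnt16 and Fzd3, with the 8-base match, had log2 fold changes of -1.28, -0.56 and -0.16, of which that of Fzd3 did not pass. Their median of -0.56 is the value of Wnt16 alone, against a median of -0.17 over all 656 tested genes that hold the match. Without any match the median was 0.007 over all tested genes and 0.002 over the members. Of the 3 members with the 7-base match only, Sfrp1 fell and Lrp6 and Dkk2 rose. Of the 7 members called, 1 held a match.

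Other genes of the pathway were read from a list of 73, of which 66 were tested. By the rule above 3 were called (4.55%, against 7.45% of all genes), and 30 passed the adjusted p (45.5%, against 46.7%), 22 higher and 8 lower. The median log2 fold change was 0.05.

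Nkd2, which encodes a Dishevelled-binding antagonist of the pathway, had 6.84, 7.01 and 7.97 CPM in control and 16.3, 16.0 and 15.2 CPM in miR182 samples. Its log2 fold change of 1.12 (SE 0.0777, adjusted p = 4.64e-08, edgeR) was larger than that of any member that rose. Prickle2, a planar cell polarity gene, was lower in all 3 miR182 samples, at 11.5 to 12.3 CPM against 20.96 to 21.8 (log2 fold change -0.83, adjusted p = 8.11e-08, edgeR). Apc2, a relative of Apc, overlapped between the groups and was called lower at 36 to 93 reads per sample (log2 fold change -0.74, SE 0.239, adjusted p = 0.0209, edgeR).

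Among the Dishevelled genes and their regulators, 6 of 9 tested genes passed the adjusted p (66.7%, against 46.7% of all genes). All 6 rose (23.2% of all genes did), with Dvl1 (0.31) and Dvl3 (0.30) next after Nkd2 by p. Of 15 kinases, other parts and regulators of the destruction complex, 7 rose and 2 fell past the adjusted p (60%, against 46.7% of all genes). Gsk3b (0.28), which encodes the kinase that marks β-catenin, Ppp2ca (0.28) and Tnks2 (0.26) had the smallest p values among these 15. The cofactors and corepressors had 4 of 15 past the adjusted p (26.7%, under the 46.7% of all genes), all higher, led by Bcl9l (0.38). The other receptors and coreceptors had 2 higher and 4 lower of 11 (54.5%), with Sdc1 (-0.54) and Gpc3 (-0.49) lowest. Of the 3 genes of Wnt secretion and modification, Wls (0.13) rose and Notum (-0.40), which encodes a secreted Wnt-modifying enzyme, fell. Of the 4 other secreted modulators tested, 1, Cthrc1 (0.23), rose. In planar cell polarity 1 of 9 rose, Daam1 (0.15), and 1 fell (22.2% together). These values are log2 fold changes.

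**Figure D4:**
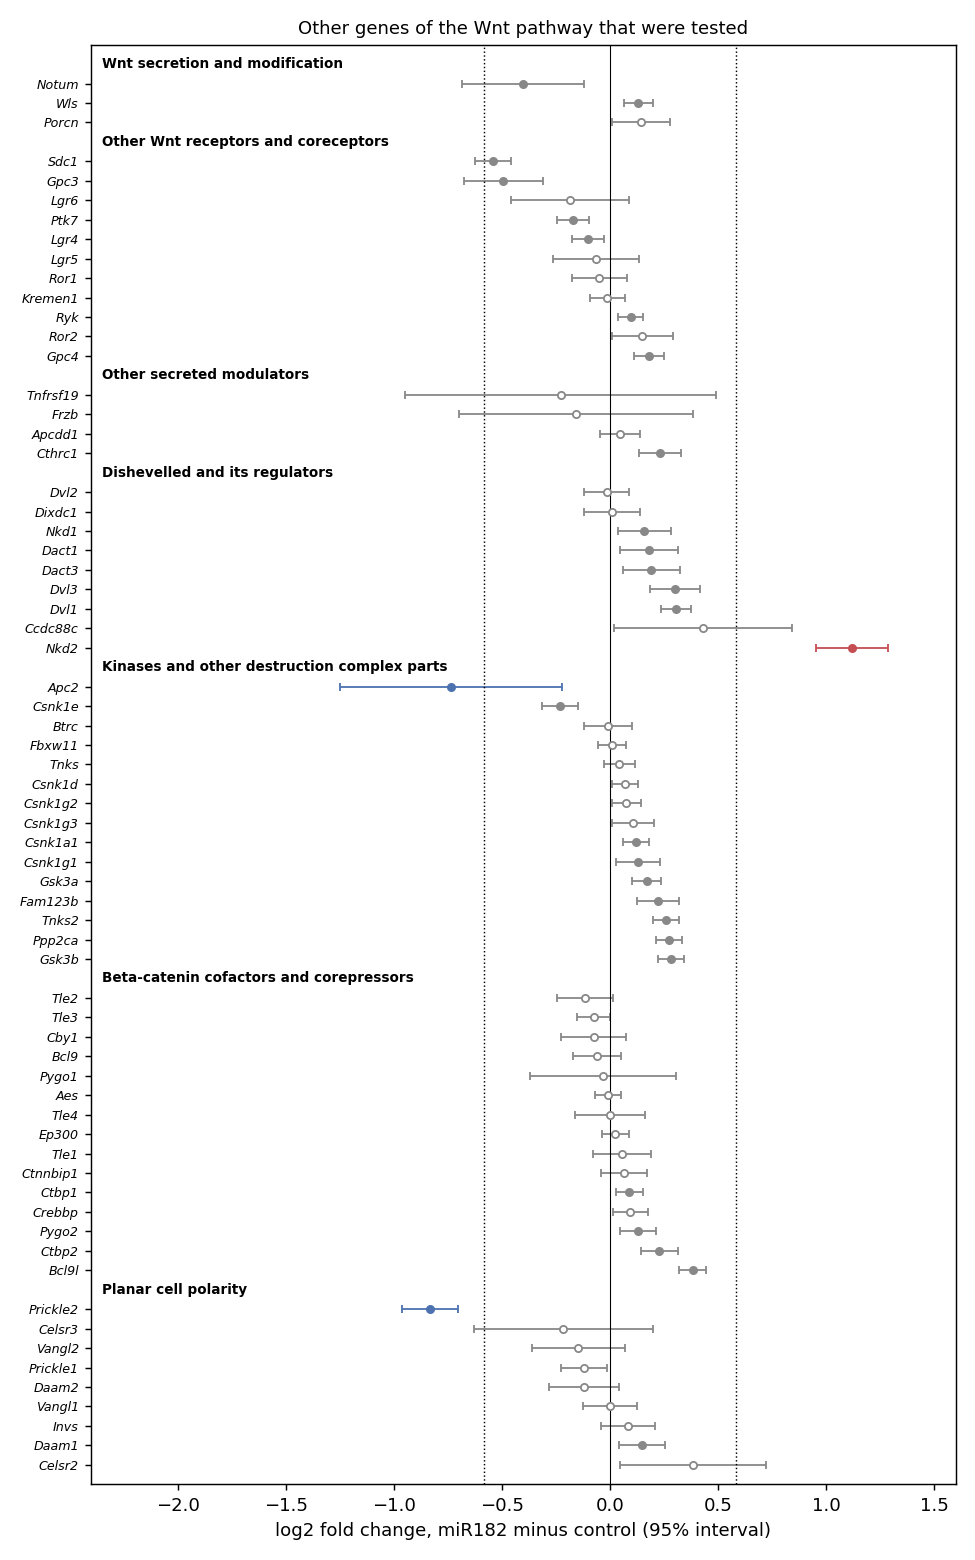
Log2 fold change (miR182 minus control, n = 3 each, edgeR) with its 95% interval for the 66 other pathway genes tested; red and blue points were called higher and lower, filled points passed the adjusted p, and dotted lines mark 1.5-fold. Nkd2 is the red point and Apc2 and Prickle2 are the blue ones, while most of the rest lie between -0.5 and 0.5.

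Of 18 textbook target genes of β-catenin with TCF and LEF factors, 6 of them members described above, 14 were tested. Axin2 and Fosl1 were called, both higher (14.3%, against 7.45% of all genes called and 1.97% called higher). Of the 11 tested that are not members, 1 was called (9.09%). In all, 8 passed the adjusted p (57.1%, against 46.7%), 6 higher and 2 lower, with a median log2 fold change of 0.07. Fosl1, which encodes an AP-1 subunit, had 3.93, 3.06 and 3.30 CPM in control and 6.17, 4.78 and 5.74 CPM in miR182 samples (log2 fold change 0.70, SE 0.133, adjusted p = 0.000617, edgeR). Cd44 (0.56), Myc (0.23), Ccnd1 (0.17) and Nkd1 (0.16) also rose past the adjusted p, and Wisp1 (-0.13) and Notum (-0.40) fell. Lgr5 (-0.06), Apcdd1 (0.05), Wisp2 (-0.07), Tnfrsf19 (-0.23), Znrf3 and Tcf7 did not pass. Most of these genes also answer to other pathways.

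Markers of cell state moved between the groups as well. All 12 adipocyte markers were expressed, as the labelled cell type requires, and their summed level was 8620 to 8950 CPM in control and 6330 to 7080 CPM in miR182 samples. Of the 12, 8 fell and 2 rose past the adjusted p, with Retn, Pnpla2 and Fabp4 called lower (-0.85, -0.69 and -0.68). The 2 that rose were Plin4 (0.50) and Lep (0.37), and Plin1 (-0.06) and Lipe (-0.09) did not pass. Of all genes tested, 23.5% fell and 23.2% rose past the adjusted p, and 7.45% were called. Markers of preadipocytes and fibroblasts summed to 41100 to 42900 and 36100 to 37400 CPM. Most of this sum was collagen, with Col1a1 at means of 19250 and 18640 CPM and Col3a1 at 19710 and 15750 CPM. Past the adjusted p, 7 of 10 tested fell and 1, Thy1 (0.19), rose. Cd34 (-1.53), Pdgfra (-0.86), Pi16 (-0.78) and Dcn (-0.64) were called lower, and Pdgfrb (0.06) and Col1a1 (-0.05) did not pass. Smooth muscle markers summed to 3450 to 3630 and 4130 to 4500 CPM. Of these 5, 3 passed the adjusted p (60%, against 46.7% of all genes), all higher, among them Acta2 (0.29), and none was called.

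The macrophage markers summed to 12.6 to 14.3 and 11.6 to 14.3 CPM, with Lyz2 called lower (-0.63) and Emr1, Ptprc, Itgam and Mrc1 at most at 8 reads. Endothelial markers summed to at least 8.89 CPM in each control and at most 6.27 CPM in each miR182 sample. Tek alone, called lower (-1.31), went from 5.59 to 6.74 CPM in control to 2.23 to 2.71 CPM in miR182 samples. Kdr did not pass, at 1.18 to 2.03 and 1.94 to 2.34 CPM (log2 fold change 0.43, adjusted p = 0.0899, edgeR), and Pecam1 had 3 to 11 reads. Schwann cell markers summed to 6.09 to 6.97 and 4.45 to 5.31 CPM, with S100b called lower (-0.71). Epithelial and mesothelial markers summed to under 0.5 CPM in every sample, 3 of 7 with 0 reads throughout. In bulk RNA fewer cells of a type and less RNA per cell cannot be told apart, and the part of these markers in the changes of Wnt genes was not tested.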

How the data were processed

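Per the labels, libraries were poly(A)-selected and strand-specific, and the submitters' processing notes name bcl2fastq, TopHat2, HTSeq and mm9, without versions. The authors deposited unnormalized counts, 1 list of gene symbols per sample. The 5 closing tally lines name no gene and were left out; reads outside genes were 12.7% to 13.0% of unique reads. Depth was 25869810 to 28796712 reads on genes.

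Counts were tested over the whole table in R 4.3.3 with edgeR 4.0.16 (TMM; filterByExpr, minimum count 10; quasi-likelihood F test, two-sided; no block). The cutoffs are those the study used. SE is the log2 fold change over the root of F, and 95% intervals use the fit's degrees of freedom. The fit was tested on simulated data with 2-fold changes only, which does not test calls near 1.5-fold. Replicates of a group differed beyond sampling noise (chi-square per degree of freedom 2.13 to 7.19). The pairs with miR182 replicate 1 gave 5.01 and 7.19. Replicates 2 and 3 of miR182 gave 2.13, and the control pairs gave 2.53 to 3.1. GENCODE M21 (GRCm38, not mm9) gave lengths, overlaps, 3′-UTRs and coordinates, matching 22178 of 22609 symbols and all 54 members. Counting limits cover counting error only.

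Alternatives were DESeq2 1.42.0, limma-voom (limma 3.58.1), other size factors and filters, the replicate block, leaving out each sample, a 2-fold cutoff and glmTreat. Every member is named or counted; from other lists, genes called and up to 3 more per list by smallest p, and further genes were chosen after their values were seen. The members and lists were chosen with earlier results of these data known.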

Additional observations from a re-analysis of the deposited data

How the results depend on the processing

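The number of members called was 7, with 6 in DESeq2 and 7 in limma-voom, with other size factors and with other filters on low counts. It was 5 to 7 in the fits that left out 1 sample, with 2 to 4 higher and 2 to 4 lower (2 lower without miR182 replicate 1 or 3, where Rspo3 and Sfrp4 lost their call). It dropped to 2 with a 2-fold cutoff (Wnt4 and Wnt5b, 0 higher and 2 lower) and to 1 with glmTreat against 1.5-fold (Wnt4, 0 higher and 1 lower), where all genes called went from 977 to 280 and 298. The 2-fold cutoff left 1 other pathway gene and 0 target genes, and glmTreat left 0 target genes. The count past the adjusted p stayed between 16 and 19. Leaving out 1 sample turned the direction of 2 genes that had not passed, Tcf7l1 (-0.0377 to 0.0112, above 0 without miR182 replicate 3) and Wnt10b (-0.266 to 0.367, under 0 without control replicate 2, and at -0.0778 and -0.0681 without miR182 replicates 2 and 3). Same-numbered samples did not deviate together (correlations of -0.185, -0.0436 and -0.0785, against -0.0564 to 0.119 between samples of different number). With 3 samples per group this cannot show whether equal numbers share a cell preparation. With the replicate block 6 members were called, 3 higher and 3 lower, 18 passed the adjusted p and 925 genes were called in all. In that fit Rspo3 missed the threshold (log2 fold change -0.829, adjusted p = 0.0578, edgeR). Depth limits Rspo3, Tcf7 and Wnt10b, with standard errors of 0.298 to 0.34, against a median of 0.063 over the members.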
